A study of Homo sapiens with 12 samples.

Results

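The NRF2 antioxidant response genes described here are NFE2L2, KEAP1, HMOX1, NQO1, GCLC, GCLM, TXNRD1, SRXN1, OSGIN1 and AKR1C1. They were chosen by gene name, and all 10 were found among the 60558 gene identifiers that the tables of both experiments share. RNA-seq was performed in MDA-MB-231 cells, an established human triple-negative breast cancer (TNBC) line, with NONO knocked down in 1 experiment and PKM2 in the other. NONO is a nuclear RNA- and DNA-binding protein, and PKM2 is the pyruvate kinase isoform that the PKM gene yields by alternative splicing. Each knockdown (KD) had its own negative control (NC) group, and the 4 groups (NC for NONO, NONO_KD, NC for PKM2, PKM2_KD) held 3 libraries each, so the experiments shared no library. The libraries were made from poly(A)-selected RNA of 1 cell line. The labels and RNA-seq methods do not state the knockdown reagent directly, but they call the control NC, the name that the study's methods give to the control siRNA. They do not say whether the replicates were separate cultures, so the P values below measure the spread between these libraries, which may be technical. In such bulk samples fewer cells of a kind and less RNA per cell cannot be told apart.

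NRF2, the protein encoded by NFE2L2, is a transcription factor that pairs with a small MAF protein and binds antioxidant response elements (AREs) near its target genes. KEAP1 holds NRF2 in the cytoplasm and hands it to a CUL3 ubiquitin ligase for degradation, and oxidants or electrophiles that modify KEAP1 let NRF2 accumulate. NRF2 activity is therefore set mainly at the level of protein, which RNA-seq does not measure. Its targets encode enzymes that make glutathione, reduce thioredoxin, detoxify quinones and aldehydes and break down heme.

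The ARE is shown first because it is the sequence through which NRF2 acts. Its core, TGACNNNGC, was searched on both strands in RefSeq promoter windows of GRCh38.p14, each reaching from 250 bases before to 50 bases after an annotated start. Windows were found for 9 of the 10 genes (12 windows, HMOX1 without one). The core was present in at least 1 window of 3 of them, KEAP1, GCLM and TXNRD1, and in 13.3% of all 35116 promoter windows of the same length. Shares over all windows count single windows, whereas a gene with more than 1 window had more chances of a match, so they are not like for like. The matches are printed 5′ to 3′ on the strand of the gene, with 10 bases on each side and the core in capitals.
KEAP1, chr19:10502807-10502835, minus strand, 54 bases before a start: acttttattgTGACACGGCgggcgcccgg
KEAP1, chr19:10502784-10502812, minus strand, 31 bases before a start: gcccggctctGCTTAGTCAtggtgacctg
GCLM, chr1:93909446-93909474, minus strand, 34 bases before a start: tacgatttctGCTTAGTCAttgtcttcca
TXNRD1, chr12:104215670-104215698, plus strand, 99 bases before a start: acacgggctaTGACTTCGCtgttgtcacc
TXNRD1, chr12:104215761-104215789, plus strand, 8 bases before a start: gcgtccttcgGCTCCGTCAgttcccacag
TXNRD1, chr12:104286920-104286948, plus strand, 102 bases before a second start: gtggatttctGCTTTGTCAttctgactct
KEAP1 and GCLM carried the same core in the reverse orientation, GCTTAGTCA. An AP-1 site (TGACTCA or TGAGTCA, which can overlap an ARE core) was present in the window of 1 gene, OSGIN1, and in 4.95% of all windows. Known AREs of some of these genes, such as that of NQO1, lie farther upstream than such windows reach. A match is a description of the letters and not evidence of binding.

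The estimated counts summed to between 19861762 and 20981712 per library in the NONO experiment and between 24097948 and 28455268 in the PKM2 experiment. The targeted genes fell in their own experiments, NONO to 47.2 to 50.1 TPM from 222 to 233 TPM and PKM to 164 to 170 TPM from 1769 to 1838 TPM. The chi-square statistic per degree of freedom between replicates, over all genes, ran from 2.33 to 12.3, and NC library 1 of the NONO experiment (8.29 and 10.2) and PKM2_KD library 3 (10.5 and 12.3) stood apart from their replicates. VIM, CD44, EGFR and KRT18, markers of this line, were detected in every library. Of the markers it should lack, ESR1, PGR and CDH1 lay at or below 0.41 TPM and EPCAM at 1.29 to 3.73 TPM, whereas ERBB2 lay at 13.7 to 35.2 TPM. Markers of other cell types (PTPRC, PECAM1 and COL1A1, 3 genes) summed to 4.45 to 6.09 TPM in NC and 2.82 to 3.45 TPM in KD of the NONO experiment, and to 8.32 to 11.9 TPM and 8.56 to 11.1 TPM in the PKM2 experiment, with PTPRC at or below 0.15 TPM throughout. Their part in the results was not tested.

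In NC cells the 10 genes covered a wide range of expression. Levels are given in TPM, a unit that corrects for depth and gene length and so allows levels of different genes to be compared within a table. TXNRD1, the cytosolic thioredoxin reductase, was the highest with 423 ± 10.4 TPM in the NC libraries of the NONO experiment and 398 ± 8.22 TPM in those of the PKM2 experiment (SD, n = 3 each). NQO1 followed with 239.6 ± 8.77 TPM and 302 ± 8.09 TPM in the same groups. As counts scaled to TMM-adjusted library size (CPM), its NC levels were closer, at 219.8 ± 12.4 and 227.6 ± 9.35. NFE2L2, KEAP1 and SRXN1 came next in this order in both experiments, and the libraries of neighbouring genes down to this point did not overlap. HMOX1, GCLC and GCLM lay together between 19.4 and 31.6 TPM, and each overlapped its neighbour, so their order was not resolved. OSGIN1 (12.4 ± 0.54 TPM and 11.4 ± 0.44 TPM) and AKR1C1 (3.22 ± 2.01 TPM and 3.02 ± 0.27 TPM) were the lowest. The tables were normalized separately, so levels of the NC groups stand side by side without a test.

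**Figure D1:**
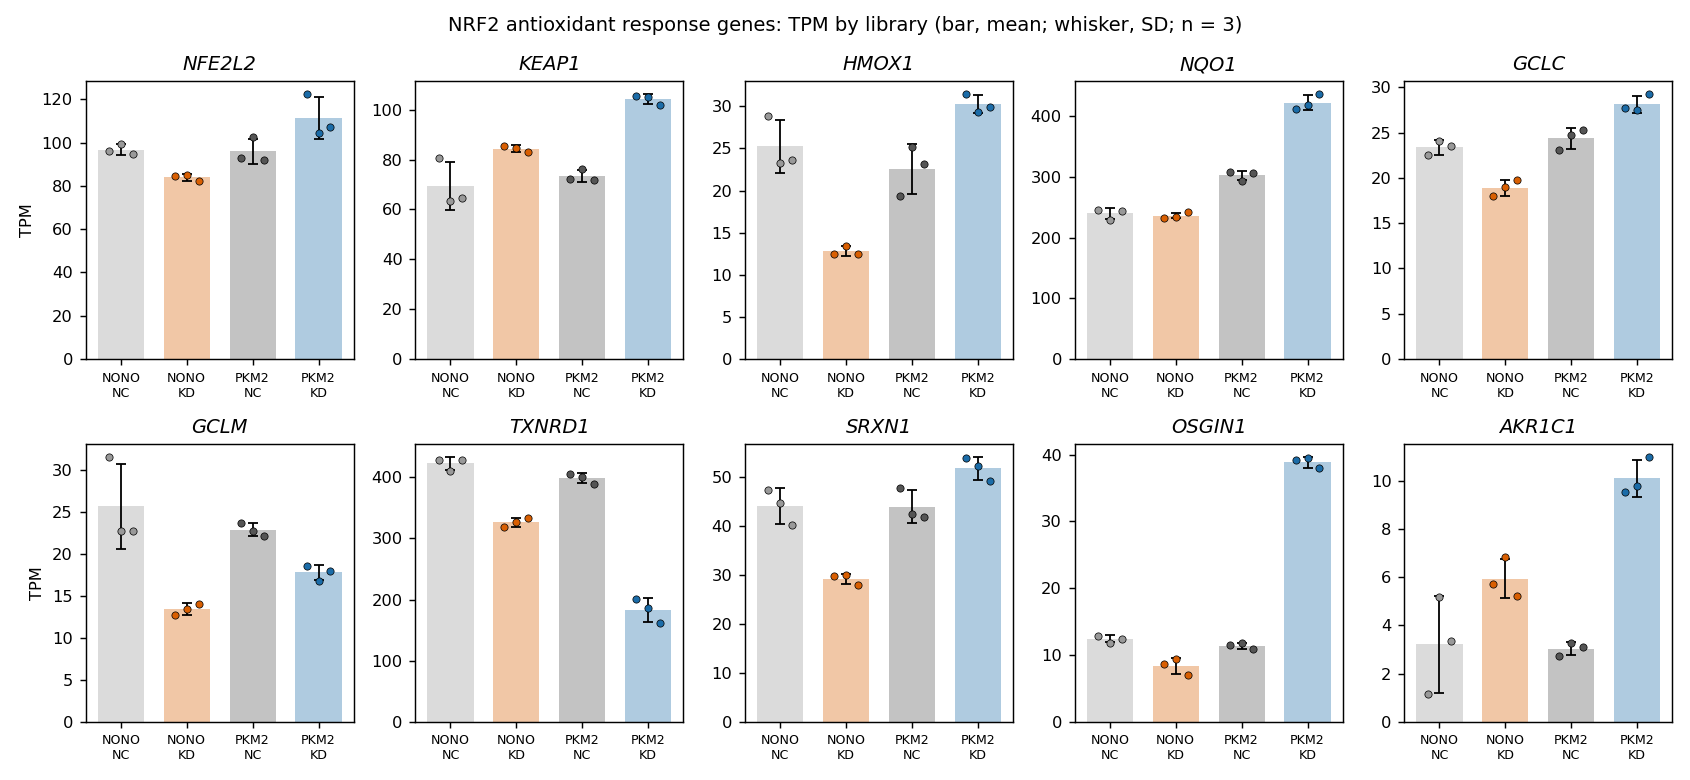
TPM of the 10 genes in each of the 12 libraries (points), with the group mean (bar) and SD (whisker, n = 3), for the NC and KD groups of the NONO and PKM2 experiments, each panel with its own axis starting at 0. OSGIN1 stood at 38.0 to 39.5 TPM after PKM2 knockdown against 10.9 to 11.7 TPM in its NC libraries, and HMOX1 at 12.4 to 13.5 TPM after NONO knockdown against 23.3 to 28.8 TPM.

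The 2 knockdowns moved most of these genes, in large part in different directions. After NONO knockdown, 7 of the 10 genes were lower (NFE2L2, HMOX1, GCLC, GCLM, TXNRD1, SRXN1 and OSGIN1) and 2 were higher (KEAP1 and AKR1C1). After PKM2 knockdown, 8 were higher and 2 were lower (GCLM and TXNRD1). A gene was called where the adjusted P of edgeR's quasi-likelihood test (Benjamini-Hochberg over all genes tested) was below 0.05. Of the calls after NONO knockdown, those of NFE2L2 and AKR1C1 were lost under several alternatives, as given below. That of KEAP1 was lost in limma on TPM, and that of OSGIN1 in limma without its filter. Over all 14832 genes tested, NONO knockdown gave calls for 33.4%, 16.2% higher and 17.2% lower, so the 9 calls among 10 genes lay above that share. PKM2 knockdown gave calls for 68.4% of 15524 genes, 33.6% higher and 34.7% lower, so 10 calls of 10 were closer to what most genes did, and the division into 8 higher and 2 lower differed more from the whole. The median log2 fold change of the 10 genes was -0.35 after NONO knockdown and 0.36 after PKM2 knockdown, beside -0.01 over all genes tested in either experiment. By the study's cutoffs for differentially expressed genes (DEGs), which ask for a change of more than 2-fold and an unadjusted P under 0.05, none of the 10 genes was a DEG after NONO knockdown (0 of 10, against 2.95% of all genes tested), although 9 had an adjusted P below 0.05 in edgeR. OSGIN1 and AKR1C1 were DEGs after PKM2 knockdown (2 of 10, against 20.8% of all). On TPM, the unit in which the study calculated expression, TXNRD1 was also a DEG after PKM2 knockdown in the limma fits (3 of 10), with 398 ± 8.22 TPM in NC and 183 ± 19.8 TPM in KD (SD, n = 3 each), as it was in edgeR without PKM2_KD library 1 (log2 fold change -1.01).

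NFE2L2 (ENSG00000116044, chromosome 2, 177227595 to 177392697, minus strand; this and the following gene positions are those of GENCODE 29 on GRCh38) encodes NRF2 itself. Its level was 96.2, 99.6 and 94.6 TPM in the NC libraries and 84.6, 85.2 and 82.3 TPM after NONO knockdown. Every KD library lay below every NC library, by a small margin. The log2 fold change was -0.13 (SE 0.04, edgeR adjusted P = 0.0414), and this call was unstable, with an adjusted P of 0.092 in DESeq2 and between 0.0158 and 0.1705 when 1 library was left out. The PKM2 experiment had levels of 93.1, 103 and 92.0 TPM in NC and of 122, 104 and 107 TPM in KD. The groups nearly touched, and the first KD library was the highest. NFE2L2 rose by 0.35 on the log2 scale (SE 0.06, edgeR adjusted P = 2.26e-04).

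KEAP1 (ENSG00000079999, chromosome 19, 10486120 to 10503741, minus strand) encodes the adaptor that targets NRF2 for degradation. It was 80.5, 63.4 and 64.4 TPM in NC and 85.6, 84.6 and 82.9 TPM after NONO knockdown. NC library 1, the one that stood apart over all genes, was close to the KD libraries and the other NC libraries were well below them. KEAP1 was higher by 0.33 (log2, SE 0.07, edgeR adjusted P = 0.00401), and by 0.44 without NC library 1. Limma on log2 TPM gave adjusted P values of 0.071 to 0.16 with all libraries. After PKM2 knockdown the levels were 106, 105 and 102 TPM, against 72.2, 76.2 and 71.6 TPM in NC. These groups were far apart relative to their spread, and the log2 fold change was 0.63 (SE 0.05, edgeR adjusted P = 5.34e-07). KEAP1 was thus higher after both knockdowns, while NFE2L2 was lower after 1 and higher after the other.

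HMOX1 (ENSG00000100292, chromosome 22, 35380361 to 35394214, plus strand) encodes heme oxygenase 1, which opens heme to biliverdin, iron and carbon monoxide. Its level was 28.8, 23.3 and 23.6 TPM in NC and 12.4, 13.5 and 12.4 TPM after NONO knockdown. All 3 KD libraries lay far below the lowest NC library. The log2 fold change of -0.93 (SE 0.10, edgeR adjusted P = 4.64e-05) was the largest fall among the 10 genes in this experiment in size, though that of GCLM lay within its error. For PKM2, HMOX1 was 19.4, 25.1 and 23.2 TPM in NC and 31.4, 29.4 and 29.9 TPM in KD. The KD libraries were all above the NC libraries, and the log2 fold change was 0.52 (SE 0.09, edgeR adjusted P = 3.54e-04).

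NQO1 (ENSG00000181019, chromosome 16, 69706996 to 69726951, minus strand) encodes NAD(P)H quinone dehydrogenase 1, a flavoenzyme that reduces quinones by a pair of electrons and is widely used as a readout of NRF2. Its level was 246, 229.6 and 243 TPM in NC and 233, 234 and 241 TPM after NONO knockdown. The groups overlapped, and the test did not call a difference, with a log2 fold change of -0.07 (SE 0.05, edgeR adjusted P = 0.356). Around PKM2 knockdown, NQO1 was 308, 293 and 305 TPM in NC and 412, 418 and 436 TPM in KD. Here the groups were clearly separated, with a log2 fold change of 0.35 on the scale of TMM-normalized counts (SE 0.05, edgeR adjusted P = 1.23e-04). GENCODE 29 places the antisense transcript AC092115.2 over 17.7% of the exon bases of NQO1, and that transcript was given 0 counts in all 12 libraries.

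GCLC and GCLM encode the catalytic and the modifier subunit of glutamate-cysteine ligase, the rate-limiting enzyme of glutathione synthesis. GCLC (ENSG00000001084, chromosome 6, 53497341 to 53616970, minus strand) was 22.5, 24.1 and 23.5 TPM in NC and 18.0, 18.96 and 19.8 TPM after NONO knockdown. The groups did not overlap, and GCLC fell by 0.42 on the log2 scale (SE 0.06, edgeR adjusted P = 2.18e-04). Its levels in the other experiment were 23.1, 24.8 and 25.3 TPM in NC and 27.7, 27.5 and 29.2 TPM in KD. All KD libraries were higher than all NC libraries, with a log2 fold change of 0.37 (SE 0.05, edgeR adjusted P = 6.77e-05).

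GCLM (ENSG00000023909, chromosome 1, 93885205 to 93909456, minus strand) was lower after both knockdowns and so parted from GCLC after PKM2 knockdown. It was 31.6, 22.7 and 22.7 TPM in NC and 12.7, 13.5 and 14.1 TPM after NONO knockdown. NC library 1 was again the odd one, and the other NC libraries were still well above the KD libraries. GCLM fell by 0.85 (log2, SE 0.11, edgeR adjusted P = 1.82e-04), and its log2 fold change was -0.67 without that library. GCLM was 23.7, 22.8 and 22.1 TPM in the NC libraries for PKM2 and 18.6, 16.8 and 18.0 TPM in PKM2_KD. It was lower in every KD library, with a log2 fold change of -0.34 (SE 0.06, edgeR adjusted P = 3.62e-04), where GCLC was higher. The ratio of GCLC to GCLM in TPM was 0.71, 1.06 and 1.04 in NC and 1.42, 1.41 and 1.41 after NONO knockdown. This ratio was 0.98, 1.09 and 1.14 in the NC libraries for PKM2 and 1.49, 1.63 and 1.63 in PKM2_KD. The transcript of the catalytic subunit thus stood higher relative to that of the modifier subunit after both knockdowns, in every library. The subunit proteins were not measured. The sum of both transcripts was 49.0 ± 4.36 TPM in NC and 32.3 ± 1.55 TPM after NONO knockdown, and 47.2 ± 0.41 TPM in NC and 45.9 ± 1.495 TPM after PKM2 knockdown (SD, n = 3 each).

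TXNRD1 (ENSG00000198431, chromosome 12, 104215779 to 104350305, plus strand) encodes a selenoprotein that passes electrons from NADPH to thioredoxin. It was 429, 411 and 429 TPM in NC and 319, 326 and 334 TPM after NONO knockdown. The replicates were tight and the groups well separated, with a log2 fold change of -0.28 on normalized counts (SE 0.04, edgeR adjusted P = 1.97e-04). TXNRD1 levels in the other experiment were 405, 401 and 389 TPM in NC and 201, 186 and 162 TPM in KD. The lowest KD library was library 3, which stood apart over all genes, and the other KD libraries were also far below NC. TXNRD1 fell by 0.97 on the log2 scale (SE 0.05, edgeR adjusted P = 1.03e-08), and by 0.93 without that library. This was the largest fall among the 10 genes after PKM2 knockdown, in a set of which 8 genes were higher.

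SRXN1 (ENSG00000271303, chromosome 20, 646615 to 653370, minus strand) encodes sulfiredoxin, which repairs overoxidized peroxiredoxins. It was 47.3, 44.7 and 40.0 TPM in NC and 29.7, 29.8 and 27.9 TPM after NONO knockdown. The KD libraries lay close together and below every NC library, with a log2 fold change of -0.54 (SE 0.07, edgeR adjusted P = 1.54e-04). Around PKM2 knockdown, SRXN1 was 47.7, 42.3 and 41.7 TPM in NC and 53.7, 52.2 and 49.1 TPM in KD. The gap between the groups was narrow, and the log2 fold change was 0.36 (SE 0.06, edgeR adjusted P = 2.55e-04). In GENCODE 29 the gene AL121758.1 covers 85.0% of the exon bases of SRXN1 on the same strand, and it was given 0 counts in all 12 libraries.

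OSGIN1 (ENSG00000140961, chromosome 16, 83948282 to 83966332, plus strand) encodes oxidative stress induced growth inhibitor 1. It was 12.9, 11.8 and 12.5 TPM in NC and 8.67, 9.36 and 7.04 TPM after NONO knockdown. All KD libraries were lower, and the log2 fold change was -0.59 (SE 0.10, edgeR adjusted P = 7.17e-04). In the PKM2 experiment OSGIN1 was 11.5, 11.7 and 10.9 TPM in NC and 39.1, 39.5 and 38.0 TPM in KD. The KD libraries agreed closely with one another and lay far above NC. OSGIN1 rose by 1.94 on the log2 scale (SE 0.07, edgeR adjusted P = 5.44e-10), from 12.7 ± 0.20 to 48.9 ± 2.15 CPM (counts scaled to TMM-adjusted library size, SD, n = 3 each), a ratio of 3.85 and the largest change of the 10 genes in either experiment. Its exons share 13.9% of their bases with another coding gene on the same strand, AC009119.2, in GENCODE 29. That gene is listed in neither experiment, so it has no counts to compare.

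AKR1C1 (ENSG00000187134, chromosome 10, 4963253 to 4983283, plus strand) encodes an aldo-keto reductase that reduces steroids and reactive carbonyls. It was the lowest of the 10 genes, with 1.15, 5.16 and 3.35 TPM in NC and 5.73, 6.83 and 5.23 TPM after NONO knockdown. The NC libraries differed widely, and the highest of them nearly reached the lowest KD library. On estimated counts, the basis of the test, the groups overlapped, with 54.6, 109 and 82.8 in NC and 160, 120 and 94.99 in KD. The log2 fold change was 0.67 (SE 0.24, edgeR adjusted P = 0.0488). The call was lost when the first (adjusted P = 0.058) or the third (0.11) NC library or the first (0.21) or the second (0.11) KD library was left out, and in limma on TPM. In the PKM2 experiment AKR1C1 was 2.72, 3.25 and 3.10 TPM in NC and 9.52, 9.77 and 10.98 TPM in KD. Here the groups were far apart, with a log2 fold change of 1.59 (SE 0.14, edgeR adjusted P = 8.69e-07).

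AKR1C1 has relatives of similar sequence, AKR1C2 and AKR1C3, between which the authors' counting may have split reads, so its values are uncertain. AKR1C2 had 10.2 to 13.4 estimated counts in NC and 16.1 to 26.6 after NONO knockdown, and 5.16 to 17.2 in NC and 25.6 to 39.4 after PKM2 knockdown. The sum of AKR1C1, AKR1C2 and AKR1C3 was 1023 ± 157 estimated counts in NC and 914 ± 98.9 after NONO knockdown, with overlapping ranges, and 1108 ± 135 in NC and 1988 ± 179 after PKM2 knockdown (SD, n = 3 each). Most of these counts were those of AKR1C3, so the sum mainly followed that gene and says little about AKR1C1. AKR1C3 was higher after PKM2 knockdown (log2 fold change 0.95, SE 0.06, edgeR adjusted P = 6.94e-08). After NONO knockdown AKR1C3 had a log2 fold change of -0.20 (SE 0.09, edgeR adjusted P = 0.0903).

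**Figure D2:**
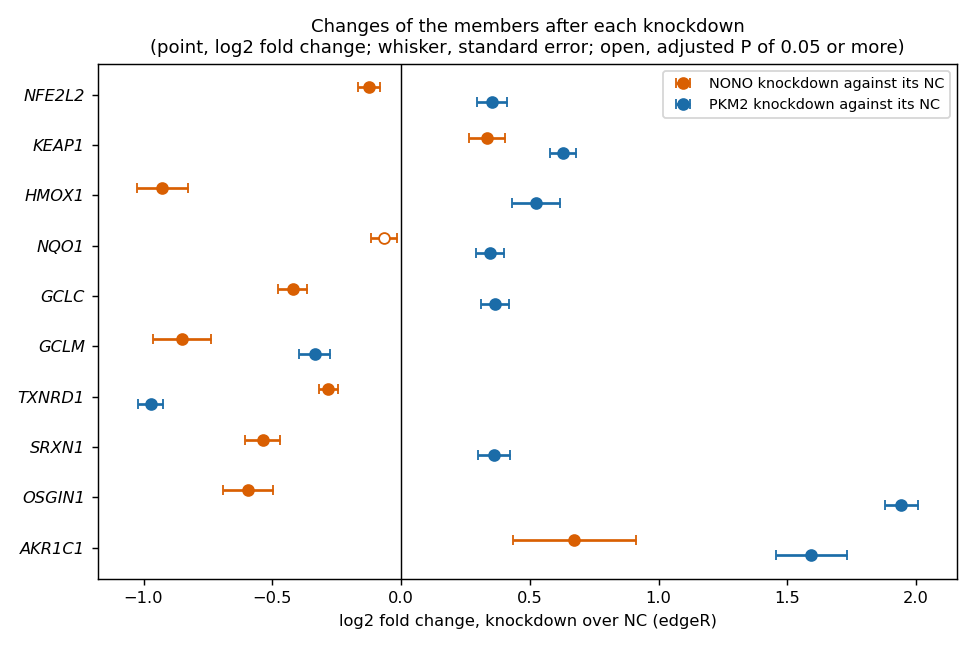
Log2 fold change of each of the 10 genes (x axis, edgeR, whisker SE) after NONO knockdown (orange) and PKM2 knockdown (blue), each against its own NC, with an open point where the adjusted P was 0.05 or more. NFE2L2, HMOX1, GCLC, SRXN1 and OSGIN1 lay on opposite sides of 0, KEAP1 and AKR1C1 on the right and GCLM and TXNRD1 on the left in both experiments, and NQO1 was open after NONO knockdown.

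The knockdowns were next compared with each other, by testing in 1 edgeR fit over the 12 libraries whether the change after PKM2 knockdown differed from that after NONO knockdown. The difference had an adjusted P below 0.05 for all 10 genes, 9 of them higher and 1 lower in the PKM2 experiment relative to the NONO experiment. Over all 15995 genes tested the share was 53.1%, with 25.7% higher and 27.4% lower. The median difference of the 10 genes was 0.64 on the log2 scale, beside -0.02 over all genes. OSGIN1 differed most, by 2.52 (SE 0.11, edgeR adjusted P = 6.73e-12), followed by HMOX1 with 1.44 (SE 0.14, edgeR adjusted P = 2.65e-07). The genes with opposite calls in the 2 experiments were 5 in number, NFE2L2, HMOX1, GCLC, SRXN1 and OSGIN1, all lower after NONO knockdown and higher after PKM2 knockdown. The calls of NFE2L2 and AKR1C1 after NONO knockdown were unstable, as given above, and that of KEAP1 was lost in limma on TPM. The places of these genes in the counts by direction are therefore uncertain. The 4 genes with calls in the same direction were KEAP1 and AKR1C1, both higher, and GCLM and TXNRD1, both lower. Their sizes differed nonetheless, since TXNRD1 fell further after PKM2 knockdown (difference -0.70, SE 0.06, edgeR adjusted P = 7.11e-08) and GCLM fell further after NONO knockdown (difference 0.50, SE 0.14, edgeR adjusted P = 0.00554). NQO1, called after PKM2 knockdown alone, differed by 0.40 (SE 0.08, edgeR adjusted P = 3.86e-04). The 3 genes with an ARE core in their promoter windows, KEAP1, GCLM and TXNRD1, were all among the 4 with the same direction, an overlap seen only after the values were known and not tested. HMOX1 had no window and AREs farther upstream would be missed, so the windows do not separate genes with an ARE from genes without.

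The wider pathway was described by 3 further lists. The regulators and partners of NRF2 were CUL3, RBX1, SQSTM1, BACH1, MAFF, MAFG, MAFK, NFE2L1, BTRC and GSK3B. After NONO knockdown 2 of the 10 were higher, 1 was lower and 7 were not called, with a median log2 fold change of -0.02, where 33.4% of all genes were called. NFE2L1, a relative of NFE2L2, rose by 0.34 (SE 0.05, edgeR adjusted P = 1.98e-04), GSK3B, a kinase that marks NRF2 for degradation, rose by 0.19 (SE 0.06, edgeR adjusted P = 0.0252), and MAFK, a small MAF partner, fell by 0.27 (SE 0.06, edgeR adjusted P = 0.00702). The GSK3B call was lost without NC library 2 (adjusted P = 0.073) or 3 (0.081) or KD library 2 (0.11) or 3 (0.12), with the replicate block (0.057) and in limma on TPM (0.21 to 0.35), and limma also lost NFE2L1 (0.057 to 0.13) and, without its filter, MAFK (0.085). After PKM2 knockdown 6 were higher, 3 were lower and 1 was not called, with a median of 0.38, where 68.4% of all genes were called, 33.6% higher and 34.7% lower. MAFF, another small MAF partner, rose by 0.90 (SE 0.07, edgeR adjusted P = 1.92e-07), and SQSTM1, which encodes the autophagy receptor p62 that captures KEAP1, rose by 0.83 (SE 0.04, edgeR adjusted P = 1.48e-08). NFE2L1 fell by 0.24 (SE 0.05, edgeR adjusted P = 0.00105), with values from -0.51 to -0.12 over the alternatives. MAFG had a log2 fold change of -1.57 (SE 0.56, edgeR adjusted P = 0.0263), which rested on 1 NC library, with 1.53, 5.26 and 0.66 TPM in NC and 0.90, 0.81 and 0.42 TPM in KD. Without the second NC library it was -0.51 (edgeR adjusted P = 0.232), and the call was also lost without KD library 2 (0.054) or 3 (0.071), in DESeq2 (0.10) and in limma on TPM (0.16 to 0.32). In the NONO table MAFG stood at 30.4 to 35.7 TPM. The tables were made with different annotation releases, but both give MAFG a length of 1743 bases. The cause of the gap was not tested, and the value of MAFG in the PKM2 table is uncertain.

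Other NRF2 target genes were higher after PKM2 knockdown more often than lower. Of the 27 listed, 25 were tested in that experiment (CES1 and GPX2 were too low), and 20 were higher, 1 was lower and 4 were not called, with a median log2 fold change of 0.41, beside 33.6% higher and 34.7% lower among all genes. AKR1B10, an aldo-keto reductase, rose by 3.82 (SE 0.27, edgeR adjusted P = 1.69e-07), from 16, 5 and 16.8 estimated counts to 146, 146 and 181. AKR1C2 rose by 2.02 (SE 0.44, edgeR adjusted P = 0.00149) under the uncertainty given above, with values from 0.87 to 2.74 over the alternatives. In NC, AKR1B10 lay at 0.20 to 0.60 CPM and AKR1C2 at 0.17 to 0.60 CPM. Both passed the low-count filter only with their KD libraries, so their places among the 20 depend on the group where they were high. GSR, glutathione reductase, was the 1 gene that fell, by 0.20 on the log2 scale (SE 0.05, edgeR adjusted P = 0.00434). After NONO knockdown 24 were tested (AKR1B10 was also too low), and 3 were higher, 9 were lower and 12 were not called, with a median of -0.09, beside 16.2% higher and 17.2% lower among all genes. TRIM16L fell by 0.84 (SE 0.06, edgeR adjusted P = 2.43e-06) and UGDH, UDP-glucose dehydrogenase, fell by 0.72 (SE 0.06, edgeR adjusted P = 4.58e-06). ME1, malic enzyme 1, rose by 0.29 (SE 0.06, edgeR adjusted P = 0.00472) and TKT, transketolase, rose by 0.25 (SE 0.04, edgeR adjusted P = 5.66e-04), calls that limma on TPM lost (0.066 to 0.10 for ME1 and 0.10 to 0.21 for TKT). The difference between the knockdowns was called for 18 of 25 genes, all 18 higher in the PKM2 experiment, with a median of 0.45, where 53.1% of all genes were called, 25.7% higher.

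A pair of steps next to the 10 genes were looked at after their values were seen. Their genes, SLC7A11, FTH1 and FTL, are among the other NRF2 target genes counted above and add nothing to those counts. SLC7A11, the cystine transporter that feeds glutathione synthesis, had calls in the same directions as GCLC, with log2 fold changes of -0.32 after NONO knockdown (SE 0.05, edgeR adjusted P = 4.20e-04) and 0.80 after PKM2 knockdown (SE 0.09, edgeR adjusted P = 1.24e-05). FTH1 and FTL encode the subunits of ferritin, which stores the iron that heme oxygenase releases. Their summed level was 10955 ± 7.68 TPM in NC and 27626 ± 1173 TPM after PKM2 knockdown, and 12214 ± 557 TPM in NC and 12672 ± 272 TPM after NONO knockdown (SD, n = 3 each). The sum of the ferritin transcripts was thus far higher after PKM2 knockdown, where HMOX1 was also higher. Its ranges overlapped after NONO knockdown, where HMOX1 was lower. The transcripts differed there, as FTL was higher with a log2 fold change of 0.20 (SE 0.05, edgeR adjusted P = 0.00644) and FTH1 was not called, with -0.06 (SE 0.06, edgeR adjusted P = 0.443).

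Of the 13 other antioxidant enzymes listed, 3 were higher, 4 were lower and 6 were not called after NONO knockdown (median log2 fold change 0.02), and 4 were higher, 5 were lower and 4 were not called after PKM2 knockdown (median 0.07). The called share after PKM2 knockdown was near the 68.4% of all genes, and that after NONO knockdown stood beside 33.4%. SOD2, mitochondrial superoxide dismutase, was higher after both, by 0.74 (SE 0.05, edgeR adjusted P = 3.07e-06) and 1.43 (SE 0.05, edgeR adjusted P = 4.49e-10). PRDX3, a mitochondrial peroxiredoxin and a user of mitochondrial thioredoxin, fell by 1.39 after NONO knockdown (SE 0.05, edgeR adjusted P = 1.59e-08), and TXN2, mitochondrial thioredoxin, fell by 0.70 (SE 0.07, edgeR adjusted P = 2.62e-05). GPX4, which reduces lipid peroxides, rose by 0.26 after NONO knockdown (SE 0.06, edgeR adjusted P = 0.00866), a call lost without KD library 2 (0.053) and in limma on TPM (0.087 to 0.21). After PKM2 knockdown GPX1 rose by 1.09 (SE 0.07, edgeR adjusted P = 1.24e-07), catalase (CAT) fell by 1.23 (SE 0.07, edgeR adjusted P = 3.92e-08) and PRDX2 fell by 0.74 (SE 0.06, edgeR adjusted P = 2.97e-07). The difference was called for 12 of these genes, 8 higher and 4 lower in the PKM2 experiment, beside 53.1% of all genes, 25.7% higher and 27.4% lower.

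**Figure D3:**
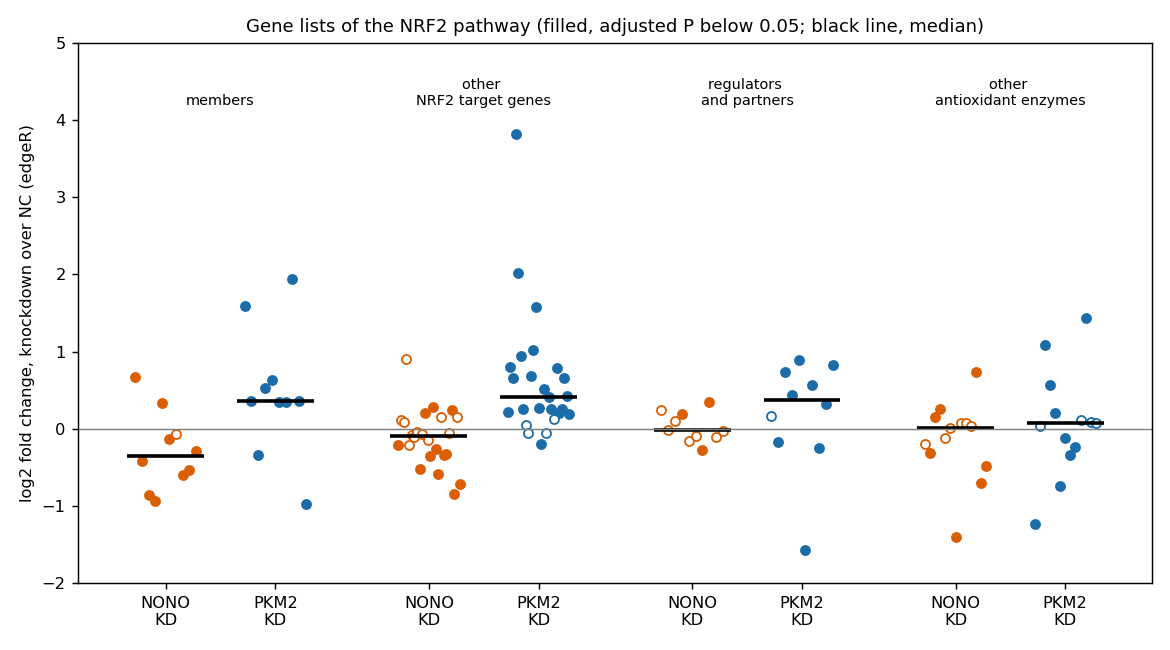
Log2 fold change (y axis, edgeR) of every tested gene of 4 lists, the 10 genes described here, other NRF2 target genes, regulators and partners of NRF2, and other antioxidant enzymes, after NONO knockdown (orange) and PKM2 knockdown (blue). Filled points have an adjusted P below 0.05 and black lines are medians, which for other NRF2 target genes were -0.09 after NONO knockdown and 0.41 after PKM2 knockdown.

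Genes with patterns most like those of NFE2L2 and NQO1 were sought over the 12 libraries, by the root mean square distance between log2 CPM values centred on the NC mean of each experiment, among 14524 genes. FAM107B (0.0501), ETV4 (0.0538) and CNOT8 (0.054) were nearest to NFE2L2, against a median distance of 0.362 over all genes. Their mean centred values were -0.13, -0.10 and -0.09 after NONO knockdown and 0.39, 0.38 and 0.30 after PKM2 knockdown. TMEM109 (0.0265), DDX5 (0.0288) and CIAPIN1 (0.0305) were nearest to NQO1, against a median of 0.359. None of the other 9 genes was among the 3 nearest to either, and small changes of a common size bring many genes near.

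The directions of the 10 genes were the same under every alternative tried, and their sizes varied most for AKR1C1 after NONO knockdown (log2 fold change 0.47 to 1.08). Limma on log2(TPM + 1) gave smaller rises after PKM2 knockdown for GCLC (0.20) and NFE2L2 (0.21), and a larger fall of NFE2L2 after NONO knockdown (-0.20). Removing the trend with gene length and GC content gave larger rises after PKM2 knockdown for HMOX1 (0.74), KEAP1 (0.84) and OSGIN1 (2.13). Leaving out NC library 1 of the NONO experiment, 8 of the 10 genes were called, 7 lower and 1 higher, and leaving out PKM2_KD library 3, all 10 were called in the PKM2 experiment.

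**Figure D4:**
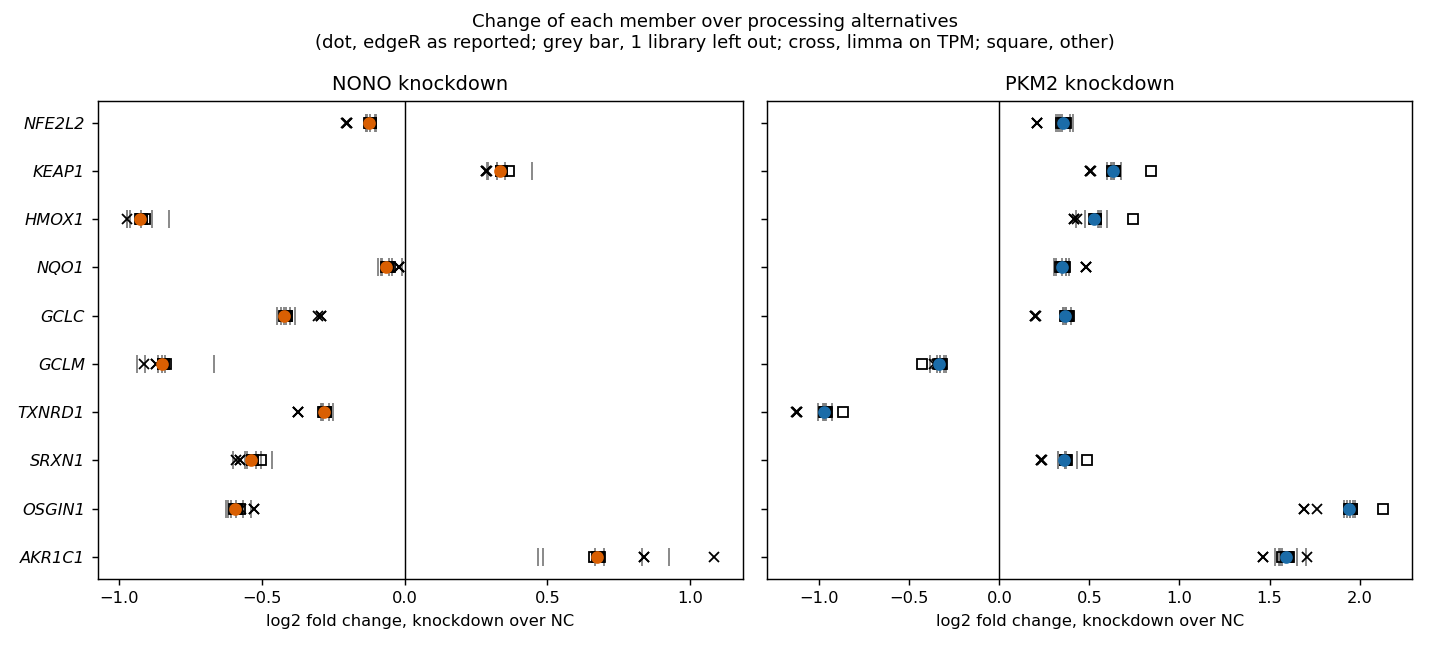
Log2 fold change (x axis) of each of the 10 genes under the processing alternatives, in panels for NONO and PKM2 knockdown, with the reported edgeR value (dot), fits with 1 library left out (grey bar), limma on TPM (cross) and the other alternatives (square). No gene crossed 0, and AKR1C1 after NONO knockdown spread from 0.47 to 1.08.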

How the data were processed

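Poly(A)-selected RNA of 12 MDA-MB-231 libraries was measured by RNA-seq. The authors deposited 1 table per experiment, with estimated counts (not whole numbers) and TPM values of every gene in every library. The submitters' processing notes name hg19, fastp, HISAT2, StringTie, RSEM, DESeq2, edgeR and limma without their roles or versions. The tables come from different annotation releases. Both also hold the authors' own comparisons, which were not used, and 0 columns of values per library were left unused. How multi-mapping reads and strand were handled is not given in the sources used here.

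Groups and replicates were taken from the sample labels. Estimated counts were rounded and tested with edgeR 4.0.16 (R 4.3.3) by the quasi-likelihood test, after TMM normalization and default filterByExpr filtering, per experiment, and as an interaction over all 12 libraries. P values were Benjamini-Hochberg adjusted over all genes tested, with a threshold of 0.05. The SE was derived from the F statistic. CPM values are TMM-normalized. Alternatives were a replicate block, RLE (relative log expression) factors, no filter on low counts, DESeq2 1.42.0, limma 3.58.1 on log2(TPM + 1) or log2(TPM + 0.1) where the mean TPM reached 1 and on log2(TPM + 1) without that filter, removal of the trend with length and GC content in 20 bins, and each library left out in turn. The interaction was not run in limma. Procedures were tested on simulated data.

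The 10 genes and all lists were chosen with earlier results of these data known. Besides the 10 genes and the targets, the genes named are the 2 largest rises and falls among the called genes of each list and the 3 nearest in pattern to NFE2L2 and NQO1, apart from those said to be chosen after their values were seen. Gene positions and exon overlaps come from GENCODE 29 on GRCh38, which is not the authors' build and served for location only. Promoter windows come from RefSeq.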

Additional observations from a re-analysis of the deposited data

Results flagged for a closer look

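The change after PKM2 knockdown differed from that after NONO knockdown, by the test of the difference itself, for each of the 10 genes. On the log2 scale, the change after PKM2 knockdown minus that after NONO knockdown was 0.46 for NFE2L2, 0.28 for KEAP1, 1.44 for HMOX1, 0.40 for NQO1, 0.77 for GCLC, 0.50 for GCLM, -0.70 for TXNRD1, 0.89 for SRXN1, 2.52 for OSGIN1 and 0.91 for AKR1C1. The edgeR adjusted P was highest for KEAP1 (0.0194) and AKR1C1 (0.0131). Without the second NC library of the NONO experiment the difference for AKR1C1 was 0.68 with an adjusted P of 0.0547. The experiments were separate, each with its own NC group, so experiment and target cannot be told apart. Groups of 3 libraries are too small for a test of single outlying libraries.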

How the results depend on the processing

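No log2 fold change of the 10 genes changed direction under any alternative. Of these values, 417 stayed on the same side of the threshold or, where the alternative has no test, within the spread between replicates, 23 lost their call, and 10 without a test moved by more than that spread. After NONO knockdown, limma called 2645 genes on log2(TPM + 1), 2657 on log2(TPM + 0.1) and 1699 without the filter, against 4954 in edgeR. Of these 911, 913 and 584 were higher (2396 in edgeR), and 1734, 1744 and 1115 lower (2558). None (0) of the 10 genes was then called higher, since KEAP1 (adjusted P 0.071 to 0.16) and AKR1C1 (0.15 to 0.32) were lost; the cause was not tested. OSGIN1 was lost without the filter (0.053). After PKM2 knockdown, the unfiltered limma fit called 3325 genes higher (5221 in edgeR) and 4987 lower (5393), and NFE2L2 was lost (0.098). DEGs numbered 172 on log2(TPM + 1) and 174 without the filter, against 437 in edgeR and 930 in unfiltered edgeR after NONO knockdown, and 1897 and 1916 against 3234 after PKM2 knockdown. The median of all genes shifted to -0.10 in limma on log2(TPM + 0.1) after PKM2 knockdown, which is not small beside the rises of GCLC (0.21), NFE2L2 (0.21) and SRXN1 (0.24) in that fit. In the NC groups the median log2 ratio of the 10 genes, PKM2 over NONO experiment, was -0.05 in TPM and -0.14 in CPM.

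With 1 library left out, 3554 to 6249 genes and 7 to 8 of the 10 genes were called after NONO knockdown, 1 to 2 of them higher. After PKM2 knockdown all 10 genes were called each time, and for the difference 9 to 10. NFE2L2 after NONO knockdown also lost its call with DESeq2 (0.092), with relative log expression factors (0.052) and without the filter (0.098).

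With a replicate block, 4351 genes and 7 of the 10 were called after NONO knockdown, 1 of them higher, with NFE2L2 (0.076) and AKR1C1 (0.071) lost, 10525 genes after PKM2 knockdown and 8239 for the difference. The block changed no other call among the 10 genes. Same-numbered NC and KD libraries deviated together by correlations of -0.065 to 0.036 in the NONO and -0.065 to 0.012 in the PKM2 experiment, which shows no strong shared deviation. The labels give them only a shared repeat number, and whether they shared a culture or a batch is not known. Depth limits AKR1C1 most, with 54.6 to 290 estimated counts per library.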
